A study of Mus musculus with 32 samples.

Results

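The messenger RNAs of 6 subunits of the phagocyte NADPH oxidase, Cybb, Cyba, Ncf1, Ncf4, Rac1 and Rac2, were described over all 8 groups of a macrophage experiment. They were the rows of the count table whose Ensembl identifiers map to these symbols, 6 of 56953 genes in the table, and all 6 passed the filter on low counts that left 14427 genes for testing. The cells were bone marrow-derived macrophages, grown from femur and tibia marrow of mice aged 8 to 12 weeks with L929 supernatant as the source of M-CSF, the macrophage growth factor. They were labelled wild type (WT) or Acod1 KO on a C57BL/6J background. The growth protocol names C57BL/6J, Irg1+/+ and Irg1-/- mice, Irg1 being another name for Acod1, without saying which of the first 2 gave the WT cells. Each genotype was left untreated, given 100 nM of the synthetic glucocorticoid dexamethasone, given 100 ng of the bacterial cell wall component LPS (the labels give no volume), or given both, for 24 h. Each of the 8 groups held 4 libraries. The labels do not say whether the 4 came from separate mice, so each p-value reflects only how far these libraries spread, which may be technical.

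The phagocyte oxidase moves electrons from NADPH across a membrane onto oxygen and so makes superoxide, the starting point of the oxidative burst with which phagocytes attack engulfed microbes. Its membrane core, cytochrome b558, is built from the catalytic subunit NOX2 (Cybb) and its partner p22phox (Cyba). On activation it is joined by the organizer p47phox (Ncf1), the phosphoinositide-binding p40phox (Ncf4) and a Rac GTPase, Rac1 or Rac2. Loss of one of several of these subunits causes chronic granulomatous disease, and in macrophages their transcription is known to respond to inflammatory signals. The values here are messenger RNA levels. Superoxide and protein were not measured in the files used here.

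Library totals ran from 17559079 to 25049200 counts. Per the paths in the file header, all 16 WT libraries were sequenced in lane 3, whereas all 8 libraries labelled KO that received LPS were sequenced in lane 2, so with LPS the genotype and the lane cannot be told apart in a comparison of the genotypes. The library labelled WT LPS replicate 3 stood apart from the other 3 of its group in Cybb, Cyba, Ncf4 and Rac2, and values without it are given below for the comparisons of these genes. It also stood apart over the genes as a whole. The shares of all genes called in comparisons with the WT LPS group include it. Acod1 itself was still counted in the libraries labelled KO, at 4994 ± 133 CPM (counts scaled to library size, mean ± SD, n = 4) with LPS against 6483 ± 249 in WT and at 3933 ± 195 with both agents against 2738 ± 34.8 in WT. No label names the deleted stretch, so counts over the whole gene do not check the genotype labels, and KO below means labelled KO. All 11 macrophage markers were detected in every group, with summed levels between 17997 and 31998 CPM per library, lowest with LPS in WT (17997 to 19935) and highest with both agents in WT (31064 to 31998) and with the lysozyme gene Lyz2 the highest of them in every group. Other cells that carry this oxidase were sparse. Of 14 neutrophil markers 13 were in the table and 6 to 11 were detected per group, with sums of 11.3 to 99.8 CPM per library that came mostly from Mmp8, and Retnlg had no count in any group. B cell marker sums, mostly Ighm, ran from 99.2 to 106.9 CPM per library in untreated WT and from 0.17 to 0.77 CPM with LPS in WT, and the defining markers Ms4a1 and Pax5 had no count in untreated libraries of either genotype. Marker sums per library reached at most 2.7 CPM for eosinophils, 4.96 for T and NK cells, 17.3 for dendritic cells (Flt3 with dexamethasone) and 3.23 for fibroblasts. The part of these cells in the results was not tested.

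The genes lie on 4 chromosomes, with positions as given in the deposited table (GENCODE vM32 per its header), and all 6 are protein coding. Cybb spans X:9301491-9354010 on the minus strand with 15 merged exons, and Cyba spans 8:123151515-123159669 on the minus strand with 7. Ncf1 (5:134248907-134258479, minus strand) and Rac1 (5:143489389-143513791, minus strand) share chromosome 5. Ncf4 (15:78129001-78146780, plus strand) and Rac2 (15:78443367-78456983, minus strand) share chromosome 15. Counting ignored strand, and 2 members share exon bases with a gene on the opposite strand: Rac1 shares 2309 of its 4496 exon bases with Daglb and Ncf1 shares 408 of 3663 with Gtf2ird2. There the reads of both genes cannot be told apart.

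Start site sequences from RefSeq (GRCm38.p6) were matched for Cybb, Cyba and Ncf1, 3 members that rose with LPS, and not for Ncf4, Rac1 and Rac2. The 250 bases before each start are shown 5′ to 3′ on the gene's strand, from chrX:9469325-9469574, chr8:122432941-122433190 and chr5:134229626-134229875, all minus strand, with matches to any of 3 motifs in capitals. These coordinates are of another build than the positions above, and the 2 sets are not to be set beside each other. In the GENCODE annotation of GRCm38, Cybb spans X:9435252-9487771. Its window thus lies inside that span, before the RefSeq start used here but not before the whole annotated gene.
Cybb: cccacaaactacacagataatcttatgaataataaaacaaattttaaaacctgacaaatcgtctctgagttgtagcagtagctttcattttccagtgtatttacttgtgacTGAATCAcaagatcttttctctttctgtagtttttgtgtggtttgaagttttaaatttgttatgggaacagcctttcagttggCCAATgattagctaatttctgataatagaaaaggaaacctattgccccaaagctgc
Cyba: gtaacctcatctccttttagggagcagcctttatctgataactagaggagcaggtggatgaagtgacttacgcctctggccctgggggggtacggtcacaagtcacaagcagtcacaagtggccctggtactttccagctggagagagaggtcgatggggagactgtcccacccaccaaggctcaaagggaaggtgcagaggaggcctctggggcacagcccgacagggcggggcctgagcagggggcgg
Ncf1: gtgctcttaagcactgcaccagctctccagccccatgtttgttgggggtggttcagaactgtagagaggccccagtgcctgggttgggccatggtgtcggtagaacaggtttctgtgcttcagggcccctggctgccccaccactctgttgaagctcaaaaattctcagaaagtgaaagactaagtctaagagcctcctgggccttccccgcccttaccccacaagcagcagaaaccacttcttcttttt
The motifs, searched on both strands, were the ETS core GAGGAA, to which the myeloid factor PU.1 binds, the AP-1 form TGANTCA and the CCAAT box. The Cybb window held 1 AP-1 match, from 139 to 133 bases before the start, and 1 CCAAT box, from 56 to 52 bases before it. The windows of Cyba and Ncf1 held none of the 3. Of 32851 promoter windows of the same length, 23.3% held the ETS core, 6.75% the AP-1 form and 33.9% the CCAAT box. A match describes the letters and is not evidence of binding. A missing match says only that these letters are not in the window.

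LPS raised 5 of the 6 subunit messages and lowered the sixth, Rac1, in both genotypes. With edgeR's quasi-likelihood test and Benjamini-Hochberg adjustment over all 14427 genes, 6 of 6 members were called at an adjusted p under 0.05 in WT and 6 of 6 in KO. Most genes were also called: 75.7% of all genes in WT and 76.1% in KO. Calls toward higher levels took 37.4% of all genes in WT and 36.8% in KO, and calls toward lower levels 38.3% and 39.3%. The median log2 fold change of the 6 members was 0.76 in WT and 0.79 in KO, beside -0.02 and -0.03 over all genes tested. In WT all these libraries were in lane 3. In KO the LPS libraries were in lane 2 and the untreated ones in lane 3 (1 of them merged over lanes), so there LPS and lane cannot be told apart. Fewer cells of a type and less RNA per cell cannot be told apart in such bulk samples.

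**Figure D1:**
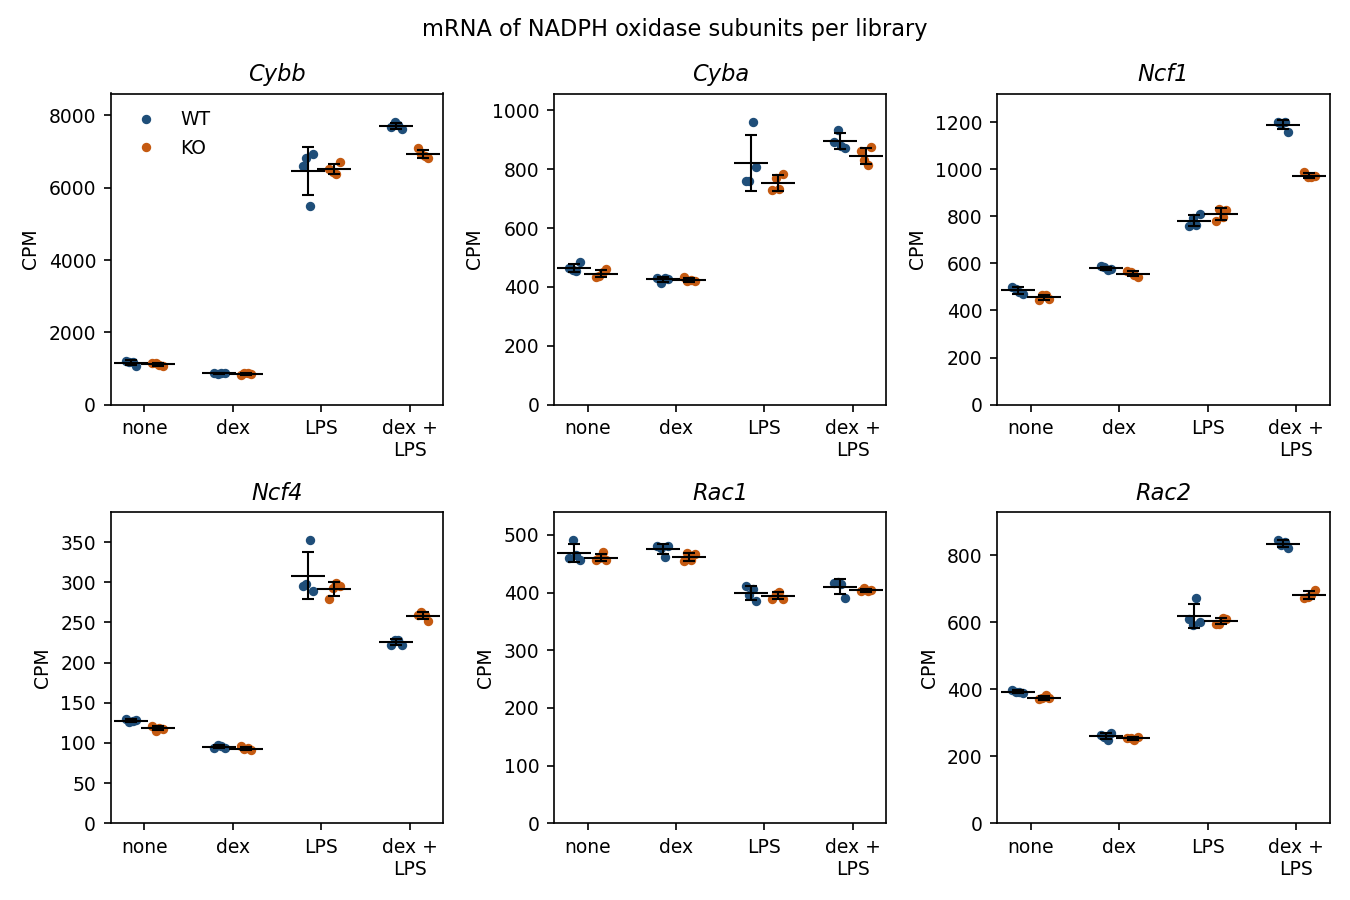
CPM of each of the 6 subunit genes (linear axes from 0) in every library, by treatment, with WT in blue and libraries labelled KO in orange; black bars are the mean ± SD of 4 libraries. Cybb runs from 831 to 887 CPM with dexamethasone in KO up to 7618 to 7825 with both agents in WT, while Rac1 stays between 385 and 491 CPM in all 32 libraries.

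Cybb, which encodes the catalytic subunit NOX2, had the widest range of the 6. Untreated WT libraries held 1214, 1189, 1174 and 1081 CPM, those with dexamethasone 862, 856, 878 and 866. With LPS the 4 WT libraries held 6599, 6816, 5496 and 6927 CPM, replicate 3 being the low one, and with both agents they held 7680.5, 7825, 7742 and 7618. All LPS libraries lay far above all libraries without LPS, and the libraries with both agents lay above every library with LPS alone. In KO the untreated libraries held 1147, 1158, 1107 and 1068 CPM and those with dexamethasone 831, 877, 887 and 843. The KO libraries held 6524, 6439, 6392 and 6715 CPM with LPS and 7106, 6921, 6874 and 6829.8 with both. In KO, too, the libraries with both agents stood above those with LPS alone, by a smaller margin. LPS raised Cybb 5.55-fold in WT, a log2 fold change of 2.47 ± 0.04 (SE; adjusted p = 4.11e-43), and 5.82-fold in KO (2.54 ± 0.04, adjusted p = 1.41e-43). Without replicate 3 of WT LPS the log2 rise in WT was 2.54. Dexamethasone alone lowered Cybb, with log2 changes of -0.43 ± 0.04 in WT (adjusted p = 1.1e-12) and for KO -0.38 ± 0.04 (adjusted p = 3.57e-11). Added to LPS, it raised Cybb in WT by 0.26 ± 0.04 on the log2 scale (adjusted p = 2.45e-07), or by 0.19 without replicate 3 of WT LPS. In KO the same comparison gave 0.089 ± 0.04 and was not called (adjusted p = 0.0791), though it was called with the 2 compared groups fitted alone (0.089, adjusted p = 0.00702), without scaling and without the filter on low counts.

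Cyba encodes p22phox, the membrane partner that stabilizes NOX2. Its WT libraries held 463, 457, 453 and 484 CPM untreated and 432, 413, 432 and 427 with dexamethasone. With LPS they held 760.3, 759, 961 and 807, replicate 3 being the high one, and with both agents 891, 933, 879 and 873. Levels with LPS were all above those without, and replicate 3 of WT LPS lay above all 4 libraries with both agents. The KO libraries held 435, 437, 450.2 and 460.1 CPM untreated, and with dexamethasone 433, 421, 422 and 418. They held 728, 769, 733 and 784 with LPS and 861, 830.1, 816 and 875 with both. In KO the libraries with both agents lay above those with LPS alone with no overlap. LPS raised Cyba 1.77-fold in WT (0.82 ± 0.04 on the log2 scale, adjusted p = 5.88e-23) and 1.69-fold in KO (0.76 ± 0.04, adjusted p = 1.6e-21). Without replicate 3 of WT LPS the log2 rise in WT was 0.74. The dexamethasone effects were small. In WT dexamethasone alone changed Cyba by -0.12 ± 0.04 (adjusted p = 0.0138), a call lost without scaling (adjusted p = 0.0638), without WT control replicate 4 (0.0632) and without WT dexamethasone replicate 2 (0.0544). In KO the value was -0.073 ± 0.04 and was not called (adjusted p = 0.166). With LPS, dexamethasone raised Cyba by 0.12 ± 0.04 in WT (adjusted p = 0.00994) and by 0.17 ± 0.04 in KO (adjusted p = 0.00125). The WT call rested on which LPS libraries were kept: it was 0.21 without replicate 3, and 0.086 and not called without replicate 1 (adjusted p = 0.0789) or without replicate 2 (adjusted p = 0.0787). It was also not called with the 2 compared groups fitted alone (0.12, adjusted p = 0.0921).

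Ncf1 encodes p47phox, the organizer whose phosphorylation starts assembly. Its WT libraries held 501, 492, 479.9 and 468 CPM untreated and 588, 583, 571 and 575 with dexamethasone. With LPS they held 759, 791, 763 and 809 and with both agents 1199, 1194, 1201 and 1159.9. The 4 treatments formed 4 separate steps in WT, in the order untreated, dexamethasone, LPS, both. In KO the libraries held 445, 465, 464 and 448 CPM untreated and 567, 563, 551 and 543 with dexamethasone. With LPS they held 779, 831, 795 and 827, and with both 988, 965, 969 and 971. The KO steps came in the same order without overlap, with a lower top step than in WT. Ncf1 was the one member that dexamethasone raised in the absence of LPS, by 0.26 ± 0.030 in WT (adjusted p = 2.59e-10) and for KO 0.29 ± 0.030 (adjusted p = 8.45e-12). LPS raised it 1.61-fold in WT (0.69 ± 0.030, adjusted p = 2.77e-26) and 1.77-fold in KO (0.83 ± 0.030, adjusted p = 1.12e-29). With LPS present, dexamethasone raised it 1.52-fold in WT (0.61 ± 0.03, adjusted p = 4.75e-24) and 1.20-fold in KO (0.27 ± 0.03, adjusted p = 1.02e-10). Gtf2ird2, with which Ncf1 shares exon bases, stayed between 20.4 and 33.1 CPM in all 32 libraries.

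Ncf4 encodes p40phox, which binds the phosphoinositide of phagosome membranes. It was the one member that dexamethasone lowered both with and without LPS. Its WT libraries held 129.9, 125, 127 and 129 CPM untreated and 93.9, 96.8, 96.6 and 93.4 with dexamethasone. With LPS they held 295, 297, 352 and 289, replicate 3 being the high one, and with both agents 221, 228, 228 and 222. Every library with both agents lay below every library with LPS alone. The KO libraries held 121, 115, 119 and 117 CPM untreated and 95.8, 92.2, 93.2 and 90.5 with dexamethasone. They held 279, 293, 298 and 295 with LPS and 259, 263, 259 and 252 with both. The KO groups had the same order, with the 2 LPS groups nearer to each other. LPS raised Ncf4 2.41-fold in WT (1.27 ± 0.04, adjusted p = 2.44e-32) and 2.47-fold in KO (1.30 ± 0.04, adjusted p = 8e-33), the log2 rise in WT being 1.20 without replicate 3. Dexamethasone alone gave -0.43 ± 0.04 in WT (adjusted p = 1.19e-12) and for KO -0.35 ± 0.04 (adjusted p = 5.14e-10). With LPS it gave -0.45 ± 0.04 in WT (adjusted p = 5.02e-15), or -0.38 without replicate 3 of WT LPS, and -0.17 ± 0.04 in KO (adjusted p = 0.000194).

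Rac2 encodes the Rac GTPase found mainly in blood cells. Its WT libraries held 397, 392, 392 and 388 CPM untreated and 264, 258, 249 and 269 with dexamethasone. With LPS they held 608, 591, 673 and 602, replicate 3 again being the high one, and with both agents 844, 832, 839.5 and 820.2. Dexamethasone libraries were the lowest without LPS and the highest with it, and no 2 treatments overlapped. The KO libraries held 369, 375, 383 and 372 CPM untreated and 255, 254, 248 and 256 with dexamethasone. They held 594, 595, 614 and 609 with LPS and 673, 674, 680.0 and 696 with both. The KO treatments had the same order without overlap. LPS raised Rac2 1.58-fold in WT (0.66 ± 0.03, adjusted p = 2.52e-24) and 1.61-fold in KO (0.69 ± 0.03, adjusted p = 4.17e-25). Dexamethasone alone gave -0.59 ± 0.03 in WT (adjusted p = 1.38e-21) and for KO -0.57 ± 0.03 (adjusted p = 8.78e-21). With LPS it raised Rac2 by 0.43 ± 0.03 in WT (adjusted p = 2.76e-17) and by 0.17 ± 0.03 in KO (adjusted p = 8.45e-06). Without replicate 3 of WT LPS the WT values were 0.62 for LPS and 0.47 for dexamethasone added to it.

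Rac1, the widely expressed Rac GTPase that also drives actin remodelling, varied least. It lay at 457 to 491 CPM in untreated WT, 462 to 481 with dexamethasone, 385 to 412 with LPS and 391 to 418 with both. In KO the ranges were 456 to 470.4, 455 to 468, 389 to 402 and 402 to 408 CPM in the same order. The 16 libraries with LPS all lay below the 16 without. LPS lowered Rac1, with log2 changes of -0.23 ± 0.030 in WT (adjusted p = 2.28e-09) and for KO -0.22 ± 0.030 (adjusted p = 3.3e-09). No dexamethasone comparison of Rac1 was called, with log2 values of 0.023 and 0.0031 without LPS and 0.037 and 0.035 with it, in WT and KO. Without scaling the WT value with LPS became 0.13 and was called (adjusted p = 5.43e-05). Daglb, whose exons overlap those of Rac1, fell with LPS from 91.7 ± 4.61 to 13.3 ± 1.87 CPM in WT and from 90.5 ± 3.37 to 14.7 ± 1.62 in KO, a log2 change of -2.79 ± 0.07 in WT (adjusted p = 1.62e-37). Whether reads of Daglb contribute to the fall of Rac1 was not tested.

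Per kilobase of exon, Rac2 made up 54.9% ± 0.84 (SD, n = 4) of the summed Rac1 and Rac2 level in untreated WT. The share was 44.2% ± 0.45 with dexamethasone, 69.1% ± 1.1 with LPS and 74.7% ± 0.43 with both. In KO it was 54.1% ± 0.080, 44.3% ± 0.35, 68.9% ± 0.40 and 70.9% ± 0.38. Within each genotype the ranges of the 4 treatments over libraries did not overlap. These shares are a description with no test. The level of the share depends on length: with the bases shared with Daglb left out of the length of Rac1, a choice made after seeing the data, it was 37.2%, 27.8%, 52.1% and 58.9% in WT and 36.4%, 27.9%, 51.9% and 54.3% in KO.

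The membrane pair changed its proportions as well. Per kilobase the ratio of Cyba to Cybb was 2.23 ± 0.178 (SD, n = 4) in untreated WT and 2.75 ± 0.0418 with dexamethasone. With LPS it fell below 1, to 0.724 ± 0.169, and with both agents it was 0.648 ± 0.0139. These 2 WT groups overlapped: the ratio ran from 0.623 to 0.977 with LPS, highest in replicate 3, and from 0.635 to 0.667 with both. The higher mean with LPS alone thus leans on that replicate. In KO the ratios were 2.23, 2.76, 0.646 and 0.682. Cyba was thus the higher message of the pair in all 16 libraries without LPS and Cybb in all 16 with LPS. In untreated WT the levels per kilobase ran from 447 ± 13.2 CPM for Cyba and 201 ± 9.98 for Cybb through 132 ± 3.89 for Ncf1, 126 ± 1.21 for Rac2 and 104 ± 3.46 for Rac1 down to 63.3 ± 0.996 for Ncf4. Ncf1 and Rac2 were the only neighbours of this order in untreated WT whose ranges over the 4 libraries overlapped. With both agents in WT, Cybb led with 1329 ± 15.2 CPM per kilobase, before Cyba (861 ± 26.2), Ncf1 (324 ± 5.28), Rac2 (269 ± 3.39), Ncf4 (111 ± 1.85) and Rac1 (91.2 ± 2.90). The place of Rac1 depends on the length used: without the bases shared with Daglb it held 213.9 CPM per kilobase in untreated WT, above Cybb, and 187 with both agents, above Ncf4. Among 14427 genes ranked by level per kilobase, Cybb moved from rank 164 in untreated WT to rank 20 with both agents.

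**Figure D2:**
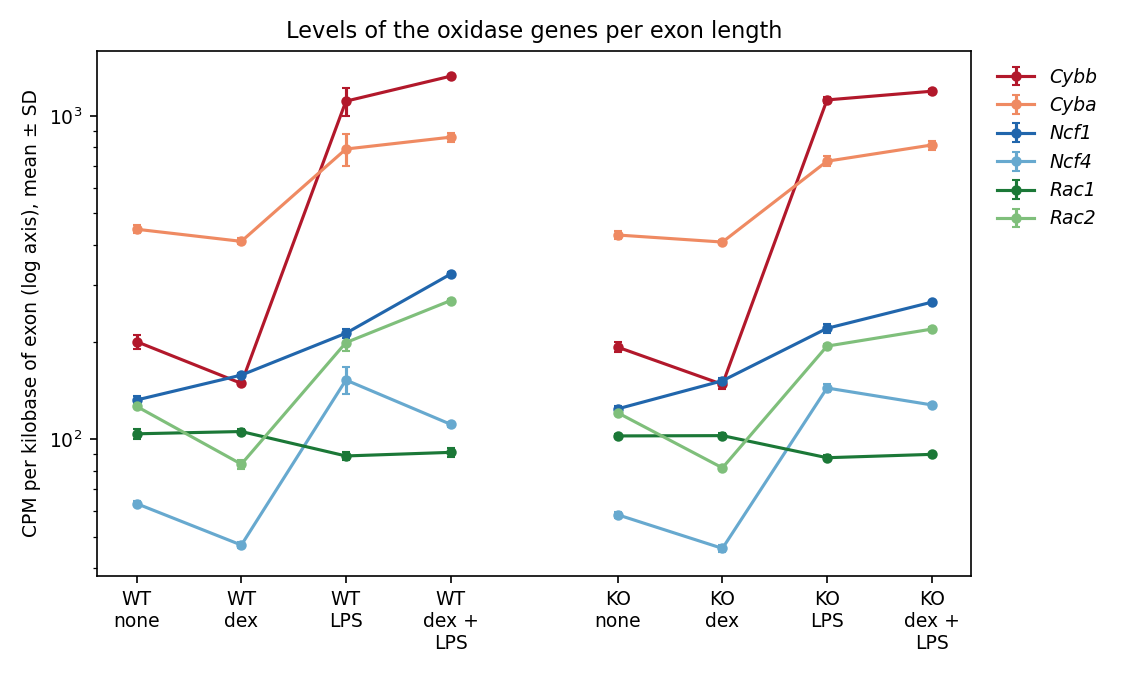
Level per kilobase of exon (CPM per kilobase, log axis; mean ± SD of 4 libraries) of the 6 subunits in the 8 groups; lines join the treatments of a genotype and carry no time order. Cybb crosses above Cyba in the LPS groups, and Ncf4 is the lowest of the 6 in the groups without LPS while Rac1, at its full exon length, is the lowest in the groups with LPS; with the bases shared with Daglb left out of its length (not plotted), Rac1 lies above Ncf4 in all 8 groups.

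Over the 8 groups, Cybb, Cyba, Ncf4 and Rac2 were lowest with dexamethasone alone. For Cybb the WT and KO groups overlapped with each other in the dexamethasone, untreated and LPS treatments, and WT with both agents was separate from all other groups. KO with both agents (6829.8 to 7106 CPM) lay above KO with LPS but overlapped WT with LPS (5496 to 6927). For Ncf1 the top of the order was WT with both agents (1159.9 to 1201 CPM), then KO with both (965 to 988), and the WT and KO groups with LPS alone overlapped. For Rac2 the same 2 groups led, at 820.2 to 844 and 673 to 696 CPM, the latter just touching WT with LPS through its replicate 3. In Ncf4 the LPS groups of both genotypes led and overlapped, and the lowest 2 groups, both with dexamethasone alone, overlapped as well.

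Dexamethasone acted in opposite directions without and with LPS on Cybb and Rac2 in WT. It did so on Cyba as well, but by small effects of -0.12 and 0.12, each not called under some of the alternatives. Alone, it changed 5 of 6 members in WT (1 higher, 4 lower), beside 49.4% of all genes (21.2% higher, 28.2% lower), and 4 of 6 in KO (1 higher, 3 lower), beside 48.5% (20.9% and 27.6%). Added to LPS, it changed 5 of 6 in WT (4 higher, 1 lower), beside 69.2% (34.6% and 34.5%), and 4 of 6 in KO (3 higher, 1 lower), beside 38.1% (20.8% and 17.3%). The members' medians were -0.27 and -0.21 without LPS and 0.19 and 0.13 with LPS, in WT and KO, beside all-gene medians between -0.02 and 0.01. With so many genes called, counts of 4 or 5 of 6 do not set these members apart.

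The difference between both effects was tested directly as an interaction, which takes the untreated and the LPS groups of one genotype together. It was called for 4 of 6 members in WT, all toward higher levels with LPS, beside 60.4% of all genes (32% toward higher). Rac2 had the widest difference, 1.02 ± 0.04 on the log2 scale (adjusted p = 2.31e-25), followed by Cybb at 0.69 ± 0.06 (adjusted p = 1e-14). Ncf1, raised by dexamethasone in both settings, differed by 0.35 ± 0.04 (adjusted p = 2.95e-10), and Cyba by 0.25 ± 0.060 (adjusted p = 0.000422). Without replicate 3 of WT LPS the differences were 1.07 for Rac2, 0.61 for Cybb, 0.34 for Ncf1 and 0.33 for Cyba, all still called. Ncf4 and Rac1 were not called: the 95% intervals were -0.14 to 0.086 and -0.073 to 0.10. In KO 4 of 6 were called, beside 41.8% of all genes (25.7% toward higher): Rac2 (0.74 ± 0.04, adjusted p = 2.75e-19), Cybb (0.47 ± 0.06, adjusted p = 1.89e-09), Cyba (0.24 ± 0.060, adjusted p = 0.00103) and Ncf4 (0.17 ± 0.06, adjusted p = 0.0106). The KO groups of this test span both lanes, and with a lane term the call of Ncf4 was lost (0.15, adjusted p = 0.0502). Ncf1 in KO was not called, with a difference of -0.02 and a 95% interval of -0.11 to 0.066.

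**Figure D3:**
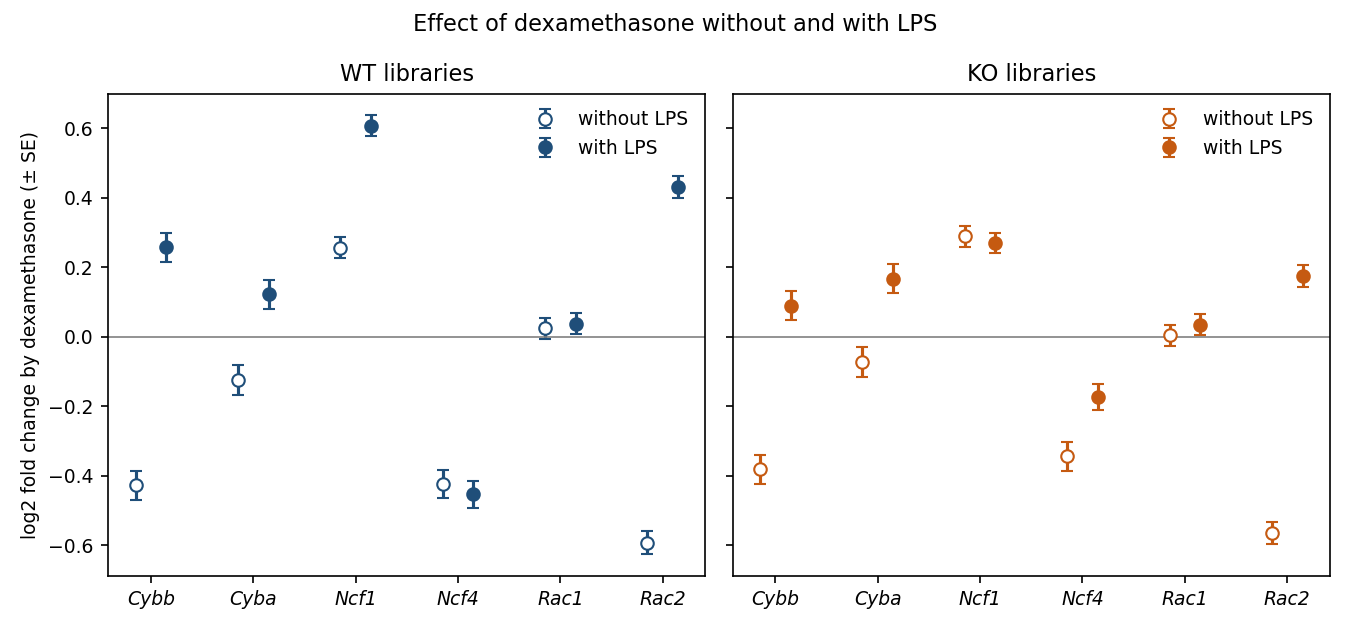
Log2 fold change (± SE) by dexamethasone of the 6 subunits, without LPS (open circles) and with LPS (filled circles), in WT (left) and in libraries labelled KO (right). Cybb, Cyba and Rac2 lie below 0 without LPS and above 0 with it in both panels, while Ncf4 lies below 0 in both settings. In KO the values of Cybb with LPS and of Cyba without it were not called.

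LPS given on top of dexamethasone, the same factorial read along its other edge, raised Cybb 8.92-fold in WT (3.16 ± 0.04, adjusted p = 5.72e-47) and 8.07-fold in KO (3.01 ± 0.04, adjusted p = 2.47e-46). Rac2 rose 3.21-fold and 2.69-fold. Ncf4 rose 2.36-fold and 2.78-fold, Cyba 2.10-fold and 2.00-fold, and Ncf1 2.05-fold and 1.75-fold. Rac1 changed by -0.21 and -0.19 on the log2 scale. All 6 members were called in WT (5 higher, 1 lower), beside 73.3% of all genes (35.5% and 37.8%), and all 6 in KO (5 higher, 1 lower), beside 75.9% (38.5% and 37.4%). The KO libraries with both agents were in lane 2. Those with dexamethasone alone were in lane 3 except replicate 4, so in KO the effects of LPS and lane can hardly be told apart. With a lane term, which rests on that replicate, all 6 were still called in KO.

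Between the genotypes, no subunit message was called without LPS, 1 was called with LPS and 4 with both agents. In untreated cells edgeR's test called 0 of 6 members, beside 0.541% of all genes. At an unadjusted p under 0.05 there were 3 (Ncf1, Ncf4 and Rac2, all lower in KO), beside 1235 of 14427 genes. DESeq2 called 1, Ncf1 at -0.10 (adjusted p = 0.0444). On lane 3 libraries alone, a choice made after seeing the data, Ncf4 was called at -0.13 (adjusted p = 0.0352), beside 174 genes. With dexamethasone edgeR called 0 of 6, beside 0.901% of all genes. At an unadjusted p under 0.05 there were 0, beside 1495 of 14427 genes, and DESeq2 called 0. The 95% intervals of the 6 log2 differences lay between -0.12 and 0.08.

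With LPS alone, 1 of 6 was called, beside 10.2% of all genes (5.51% lower in KO): Cyba, lower in KO with a log2 difference of -0.13 ± 0.04 (adjusted p = 0.0483). That call rested on replicate 3 of WT LPS, without which the value was -0.042 (adjusted p = 0.537). It was also lost without replicate 4 of WT LPS (0.0509), without replicates 1, 2 or 3 of KO LPS (0.155, 0.0571 and 0.141), with RLE size factors, without scaling, with DESeq2, with the compared groups alone and with a lane term (-0.10, adjusted p = 0.775). The lane term rests on the 1 KO dexamethasone library sequenced in lane 2.

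With both agents, 4 of 6 were called (1 higher, 3 lower in KO), beside 56.4% of all genes (28.5% and 27.9%). Lower in KO were Ncf1, with a log2 difference of -0.29 ± 0.03 (adjusted p = 4e-12), Rac2 with -0.29 ± 0.03 (adjusted p = 1.76e-11) and Cybb with -0.15 ± 0.04 (adjusted p = 0.00105). Ncf4 was higher in KO by 0.20 ± 0.04 (adjusted p = 1.49e-05). Cyba was not called (-0.081, adjusted p = 0.102), but was called lower in KO with RLE size factors (-0.11, adjusted p = 0.0262), without scaling (-0.12, adjusted p = 0.0134), with DESeq2 (-0.11, adjusted p = 0.0319) and with the compared groups alone (-0.07, adjusted p = 0.0205). For the 4 called genes the 4 KO libraries did not overlap the 4 WT libraries. With a lane term, which rests on the 1 KO dexamethasone library sequenced in lane 2, Ncf1 (-0.24, adjusted p = 0.00051), Ncf4 (0.25, adjusted p = 0.0121) and Rac2 (-0.32, adjusted p = 5.12e-05) were still called and Cybb was not (-0.12, adjusted p = 0.277). Genotype and lane cannot be told apart here beyond that 1 library, and Acod1 counts in these libraries were higher in KO than in WT by 0.52 ± 0.04 (adjusted p = 7.56e-16). The macrophage marker sum moved with these groups: with both agents it was 31064 to 31998 CPM per library in WT and 23072 to 23789 in KO, and Lyz2 averaged 20949 and 12533 CPM. Their part in the difference was not tested.

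**Figure D4:**
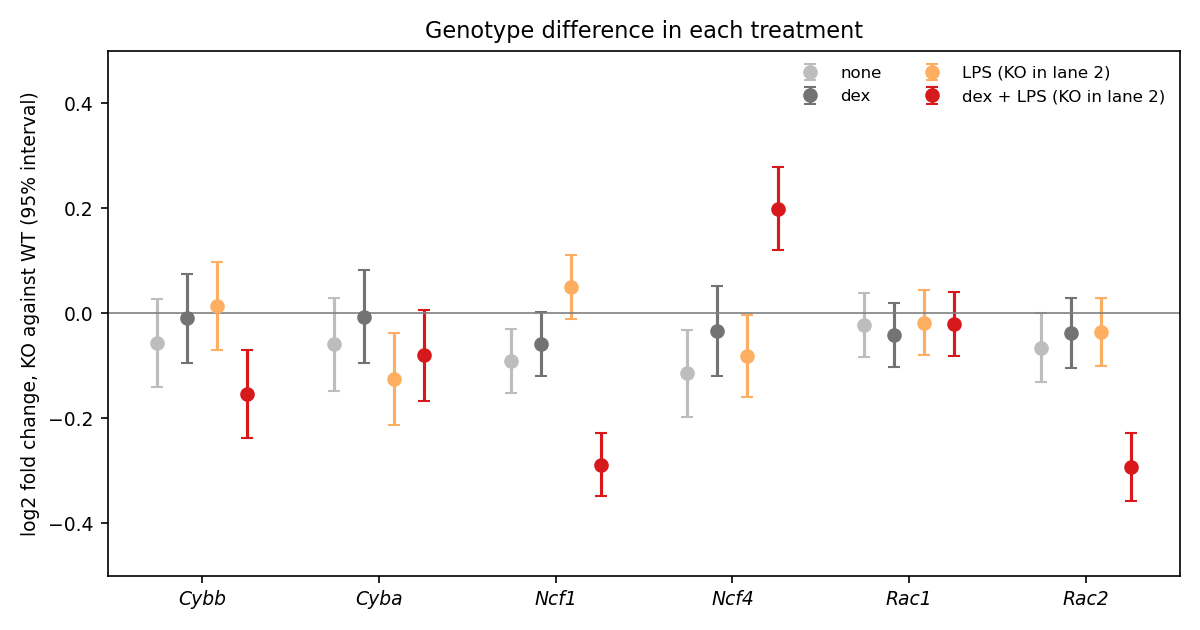
Log2 fold change of libraries labelled KO against WT (points) with 95% intervals (bars) for the 6 subunits in each treatment; with LPS the KO libraries were in lane 2 and the WT libraries in lane 3. The values without LPS lie between -0.11 and -0.01, and those with both agents reach -0.29 for Ncf1 and Rac2 and 0.20 for Ncf4.

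The effect of dexamethasone in the presence of LPS was smaller in KO than in WT for several members. Over all genes, too, this effect was called less often in KO (38.1%) than in WT (69.2%), so a weaker response in KO does not set the members apart. The comparison sets KO with both agents against KO with LPS, all in lane 2, beside the same in WT, all in lane 3. Each effect is thus measured within 1 lane. The difference between the genotypes' effects was called for 4 of 6 members, 1 higher and 3 lower, beside 45.4% of all genes (23.9% and 21.5%). It was -0.34 ± 0.04 for Ncf1 (adjusted p = 1.46e-09), -0.26 ± 0.04 for Rac2 (adjusted p = 3.2e-06) and -0.17 ± 0.06 for Cybb (adjusted p = 0.0145), whose rises were smaller in KO. For Ncf4, whose fall was smaller in KO, it was 0.28 ± 0.05 (adjusted p = 2.07e-05). Without replicate 3 of WT LPS the value of Cybb was -0.10 (adjusted p = 0.0481), and those of Ncf1, Rac2 and Ncf4 were -0.33, -0.30 and 0.21, all still called. Cyba (-0.079 to 0.17) and Rac1 (-0.089 to 0.085) were not called, the ranges being 95% intervals. For the effect of LPS, 1 of 6 differed between genotypes, beside 3.72% of all genes (2.07% toward higher): Ncf1 at 0.14 ± 0.04 (adjusted p = 0.0425). Of the 16 fits that each left out 1 library, 9 lost that call: those without replicate 1, 2 or 3 of WT control, 1 or 3 of WT LPS, 1 or 4 of KO control and 2 or 4 of KO LPS (adjusted p = 0.0521 to 0.118). It was also lost with a lane term (0.17, adjusted p = 0.306), the KO groups of this difference being in different lanes. That term rests on the 1 KO dexamethasone library sequenced in lane 2, and the value itself was not smaller with it. For dexamethasone alone, edgeR called 0 of 6 members and 0% of all genes, with 0 members and 617 genes at an unadjusted p under 0.05 and 0 genes by DESeq2.

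Further genes of the oxidase and its relatives were read from a list of 12, of which 5 passed the filter. Of these, 3 rose and 1 fell with LPS in each genotype, dexamethasone alone raised 3 and lowered 2 in WT and raised 2 and lowered 2 in KO, and added to LPS it raised 1 and lowered 3 in WT and raised 1 and lowered 2 in KO. The other 7, Nox3, Nox4, Noxa1, Duox1, Duox2, Duoxa1 and Duoxa2, had 0 to 6 counts each over all 32 libraries. Cybc1, which encodes the chaperone that NOX2 needs for its maturation, held 85.3, 82.9, 83.5 and 83.8 CPM in untreated WT and 192, 192, 183 and 179 with LPS. With both agents it held 112, 116, 117 and 118 CPM in WT and 173, 177, 177 and 168 in KO. LPS raised it 2.22-fold in WT and 2.48-fold in KO, and dexamethasone on top of LPS lowered it, with log2 changes of -0.69 ± 0.03 in WT (adjusted p = 1.09e-23) and for KO -0.23 ± 0.03 (adjusted p = 1.28e-07). Cybc1 shares 68 exon bases with Hexdc on the opposite strand. Chaperone and catalytic subunit thus moved in opposite directions in WT when dexamethasone was added to LPS. Hvcn1, the proton channel that balances the charge the oxidase moves, fell with dexamethasone alone from 59.8 ± 1.80 to 26.7 ± 1.60 CPM in WT (-1.16 ± 0.06, adjusted p = 7.87e-24). With LPS, dexamethasone raised it by 0.30 ± 0.05 in WT (adjusted p = 3.74e-07), and the interaction of 1.46 ± 0.07 (adjusted p = 5e-23) had the direction of those of Cybb and Rac2. Rac3, the third Rac gene, was low, at 6.72 CPM in untreated WT and 1.73 with both agents. Nox1 and its organizer Noxo1 stayed under 2 CPM in all libraries.

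The wider pathway was read from 5 further lists. Among 17 tested genes that load or unload Rac, 6 were higher and 9 lower with LPS in WT, and 6 and 10 in KO, with list medians of -0.59 and -0.53. The Rac GTPase-activating protein gene Arhgap15 fell by 4.16 on the log2 scale in WT and the exchange factor genes Dock2 and Vav3 changed by -1.30 and -1.92 (each called). Adding dexamethasone to LPS changed 8 up and 7 down in WT and 5 and 4 in KO, Arhgap15 rising by 2.81 in WT and 1.32 in KO. Dexamethasone alone raised 7 and lowered 7 in WT and 6 and 6 in KO, for example Swap70 at -0.42 and Vav1 at -0.25 in WT.

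Of 17 tested kinases and helpers of the priming and activation step, 5 were higher and 10 lower with LPS in WT, and 5 and 9 in KO. Syk, the kinase downstream of Fc receptors and Dectin-1, rose by 1.55 in WT, and Pak1 and the protein kinase C gene Prkcb changed by -2.00 and -1.57. Dexamethasone on top of LPS raised 11 and lowered 4 in WT, led by Pak1 at 2.08 and the phosphoinositide 3-kinase gene Pik3cd at 1.03, and raised 5 and lowered 2 in KO. Alone it raised 7 and lowered 6 in WT and 6 and 7 in KO.

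The 10 listed genes of pathways that supply NADPH, the electron donor, were all tested. Not every one encodes an enzyme that makes NADPH itself, Rpe being one that does not. Of the 10, 7 rose and 2 fell with LPS in WT and 6 and 2 in KO, with list medians of 0.29 and 0.28. The pentose phosphate pathway gene Pgd rose by 1.22 ± 0.030 in WT and the malic enzyme gene Me1 by 2.15 ± 0.072, while Idh1 fell by 1.26. Dexamethasone alone lowered 6 and raised 0 in each genotype, G6pdx, the entry enzyme of the pathway, changing by -0.53 in WT and -0.54 in KO. With LPS present it raised 6 and lowered 3 in WT, and 4 and 3 in KO, Rpe rising by 1.02 and Pgd changing by -0.65 in WT. The interaction was called for all 10 in WT, 8 toward higher and 2 toward lower, beside 60.4% of all genes (32% toward higher).

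Of 12 tested genes that remove superoxide and peroxide, 10 rose and 1 fell with LPS in WT, and 11 and 1 in KO, with list medians of 1.25 and 1.21. The mitochondrial superoxide dismutase gene Sod2 rose by 4.62 ± 0.037 in WT and 4.67 ± 0.037 in KO, and the peroxiredoxin gene Prdx5 by 4.52 and 4.35. Dexamethasone added to LPS lowered 7 and raised 2 in WT, Prdx1 changing by -2.84 and Txnrd1 by -1.50, and lowered 5 and raised 1 in KO, where the same genes changed by -0.59 and -0.47. Alone it raised 4 and lowered 6 in each genotype, with catalase (Cat) at -0.54 in WT and -0.55 in KO. With both agents Prdx1 was higher in KO than in WT by 1.88 ± 0.039 and Txnrd1 by 0.96, in the same groups in which genotype and lane cannot be told apart.

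**Figure D5:**
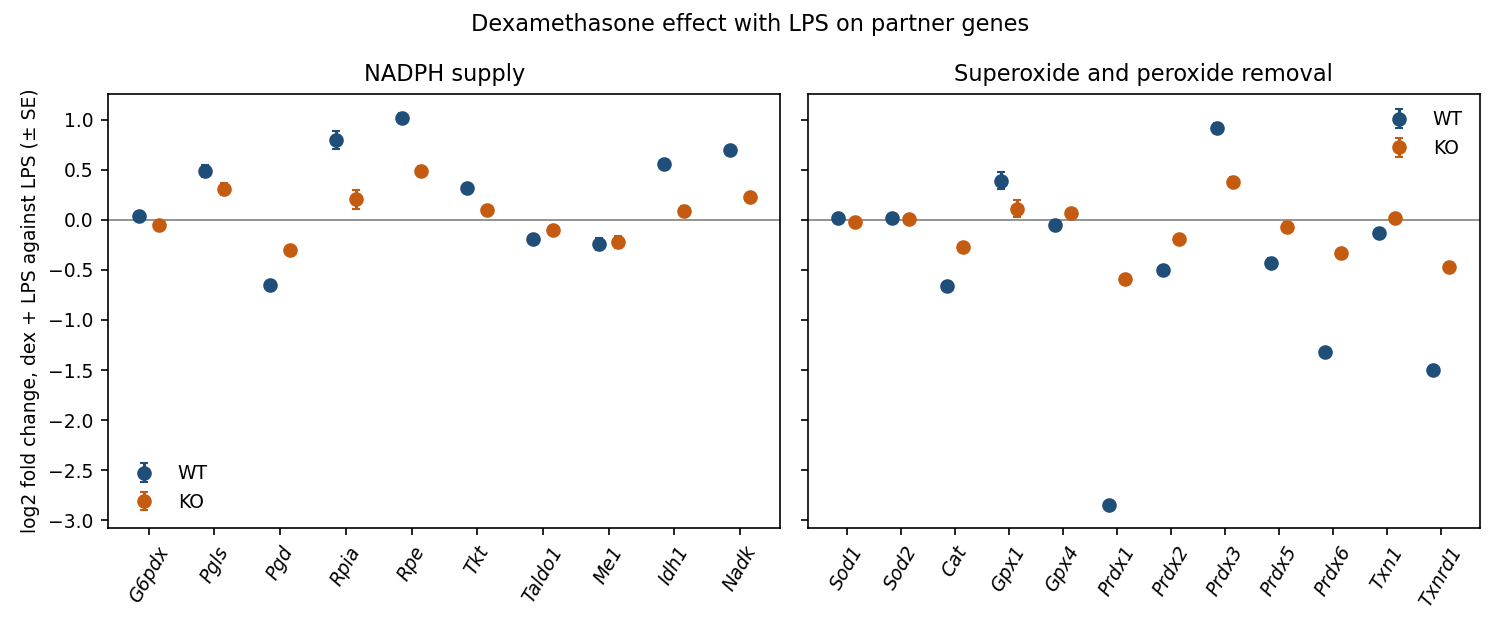
Log2 fold change (± SE; bars smaller than the points are hidden) by dexamethasone added to LPS for genes of NADPH supply (left) and of superoxide and peroxide removal (right), in WT (blue) and in libraries labelled KO (orange). Prdx1 is lowest at -2.84 in WT and -0.59 in KO, and Rpe, which does not itself make NADPH, is the highest on the left in both.

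Among 10 tested transcription factors known for phagocyte oxidase genes, 4 rose and 5 fell with LPS in each genotype. Cebpb rose by 2.71 in WT and Nfkb1 by 0.89, while Cebpa changed by -2.12 and Irf8 by -0.78. Dexamethasone alone raised 3 and lowered 5 in each genotype, with Cebpa at 1.36 and Irf1 at -0.63 in WT. Added to LPS it raised 3 and lowered 6 in WT, with Irf8 at -1.03, Irf1 at -1.12 and Rela at -0.79, and raised 1 and lowered 4 in KO, with Irf8 at -0.38. Between the genotypes with both agents, higher and lower counts in KO were 3 and 0 for the 5 further oxidase genes, 7 and 5 for the Rac regulators, 4 and 9 for the kinases, 1 and 8 for NADPH supply, 6 and 2 for removal, and 6 and 4 for the transcription factors, with genotype and lane again inseparable. Prex2, Prkcz, Sod3, Hoxa9 and Hoxa10 did not pass the filter. The lists' counts are a description. Of all genes, 75.7% were called with LPS in WT and 76.1% in KO, and 49.4% and 48.5% with dexamethasone alone. When dexamethasone was added to LPS, 69.2% and 38.1% were called, and between the genotypes with both agents 56.4%. The shares called higher and lower are given above for each of these comparisons.

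Patterns over the 8 group means of log2 CPM were compared with 10372 genes, and Pearson's r is given as a description, since the points share libraries and scaling. Nearest to Cybb were Fcgr2b, which encodes the inhibitory Fc receptor (r = 0.9998), Serf1 (0.9996) and Atp6v0c, a subunit of the vacuolar proton pump (0.9996). Nearest to Cyba were Chchd2, Sec22b and Slfn2 (0.9982 to 0.9978), and to Ncf1 Rhoq, Stxbp3 and Pirb (0.999 to 0.9981). Nearest to Ncf4 were Abcc4, Mrpl54 and Psmd13 (0.9988 to 0.9984), to Rac2 Acaa1a, Lacc1 and Marcksl1 (0.9991 to 0.9973) and to Rac1 Tle3, Man2b1 and Zfp282 (0.9996 to 0.9965). Among the members themselves, Cybb and Cyba were most alike (r = 0.9946) and Cybb and Rac1 most opposed (r = -0.9755), whereas Ncf1 and Ncf4 gave 0.7661. Such values were common: of the 10372 genes, Cybb ranked 25 in likeness to Cyba, 292 to Rac2, 601 to Ncf4, 912 to Ncf1 and 9939 to Rac1.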

How the data were processed

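The deposited values were whole-number counts of read pairs per gene in 32 libraries, made by the authors with featureCounts 2.0.0 over GENCODE vM32 exons without regard to strand, per the file headers. The submitters' processing notes name STAR (version not given), GRCm38 and mm10; vM32 positions are printed as deposited. The table's other column, the summed exon length per gene, was also deposited and served to set levels per kilobase. Identifiers were paired with symbols through the supplied gene name tables (52029 of 56953 matched; rows without a symbol held 0.846% of counts). Libraries were grouped by their titles. CPM used TMM-scaled library sizes. Genes passing filterByExpr (14427) entered edgeR 4.0.16's quasi-likelihood test (R 4.3.3, limma 3.58.1) with all 8 groups in 1 model (24 residual degrees of freedom) and 17 contrasts. Adjusted p is Benjamini-Hochberg over all genes tested, called under 0.05. The script was tested on simulated counts. Each pair of libraries within a group differed by more than sampling noise (chi-square per degree of freedom 2.05 to 18.4 over 48 pairs), so none was merged. The pairs with WT LPS replicate 3 gave 17.8 to 18.4, and all other pairs at most 6.00.

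The alternatives were RLE size factors, no scaling, no filter, DESeq2 1.42.0, the compared groups alone, a lane term, a replicate block, a threshold of 0.01 and leaving out each library. Lane 3 libraries alone and exon lengths without shared bases were added after seeing the data. All members were named in every comparison, from each pathway list up to 4 genes per comparison with the smallest adjusted p and any other oxidase gene, and for each member the 3 genes of most similar pattern (log2 CPM, prior count 2, at least 5 CPM in some group). The members and lists were chosen with earlier results of these data known. Items withheld from this text were left out of the lists and are not reported here.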

Additional observations from a re-analysis of the deposited data

Results flagged for a closer look

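Among 48 sets of 4 libraries (6 members in 8 groups), 3 held 1 library far from the others, and chance flags about 1 in 20 such sets. Ncf4 was high in WT LPS replicate 3, at 352.2 CPM. Rac1 was low in WT dexamethasone replicate 3, at 462.4 CPM, and in WT with both agents replicate 4, at 390.5 CPM.

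In the tests of a difference between effects, the dexamethasone effect was higher with LPS than without in WT for Cybb (0.69), Cyba (0.25), Ncf1 (0.35) and Rac2 (1.02). In KO the same difference was 0.47 for Cybb, 0.24 for Cyba, 0.17 for Ncf4 and 0.74 for Rac2. Between genotypes, the LPS effect on Ncf1 was higher in KO by 0.14. The dexamethasone effect with LPS differed, as KO minus WT, by -0.17 for Cybb, -0.34 for Ncf1, 0.28 for Ncf4 and -0.26 for Rac2. All are log2 values.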

How the results depend on the processing

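The widest called member difference that lost its call under an alternative was the dexamethasone interaction of Ncf4 in KO (0.17 on the log2 scale), lost at a threshold of 0.01 and with a lane term; no called member difference changed sign. Of 102 member fold changes, 94 to 99 kept both under RLE size factors, no scaling, no filter, DESeq2, the compared groups alone, a lane term or a threshold of 0.01. Over the 1056 member values with 1 library left out, 1007 kept both, 18 lost a call and 31 changed sign, all 31 uncalled. The cause was not tested. Members labelled KO against WT with LPS were 0 called under RLE, no scaling, the lane term, DESeq2, the groups alone and a threshold of 0.01, and 0 to 1 with 1 library left out. For the LPS effect between genotypes it was 0 under no filter, the lane term, the groups alone and 0.01, and 0 to 1 with 1 left out. In untreated cells 1 member was called by DESeq2 and 1 in lane 3 libraries alone. Sign changes were in uncalled values: the dexamethasone interaction of Rac1 in KO was -0.0042 under RLE and -0.0043 under DESeq2 and in WT -0.0047 with the groups alone, and that of Ncf4 in WT was 0.036 without scaling. Without scaling, Rac1 in KO against WT with LPS was 0.014 and the KO minus WT dexamethasone effect with LPS of Cyba -0.024. Rac1 with dexamethasone in KO was -0.0011 with no filter and -0.0091 with the lane term, under which the KO minus WT LPS effects of Rac1 and Rac2 were -0.028 and -0.0042.

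Leaving out 1 library gave these ranges of log2 values that crossed 0. The interaction in WT was -0.061 to 0.039 for Ncf4 and -0.011 to 0.036 for Rac1. KO against WT was -0.032 to 0.0037 for Rac1 untreated, -0.026 to 0.0051 for Cybb with dexamethasone, and with LPS -0.057 to 0.048 for Cybb and -0.058 to 0.0066 for Rac2. The KO minus WT LPS effect was -0.0014 to 0.10 for Cybb, -0.10 to 0.016 for Cyba and -0.022 to 0.017 for Rac1, and that of dexamethasone with LPS -0.039 to 0.081 for Cyba and -0.026 to 0.015 for Rac1. Rac1 with dexamethasone in KO was -0.0034 to 0.013.

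Counts of all genes called moved most between genotypes. The lane term in these counts rests on the 1 KO dexamethasone library sequenced in lane 2. KO against WT untreated gave 78 genes, 38 at 0.01, 137 with no filter, 121 with the groups alone, 174 in lane 3 alone and 47 to 73 with 1 library left out. With dexamethasone it gave 130 genes, 62 at 0.01, 201 with no filter, 75 with the lane term, 401 with the groups alone and 69 to 119 with 1 left out. With LPS 1468 genes became 829 at 0.01, 112 with the lane term and 667 with the groups alone, and with both agents 8137 became 4834 with the lane term. The genotype difference of the LPS effect gave 536 genes, 260 at 0.01, 113 with the lane term and 314 with the groups alone. That of dexamethasone alone gave 0, or 6 with no filter, 1 with the groups alone, 2 in lane 3 alone and 0 to 3 with 1 left out.

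Without scaling the median of all genes for LPS was -0.28 in WT and -0.27 in KO, beside -0.02 and -0.03 in the main fit. For dexamethasone added to LPS in WT it was 0.10, beside 0.007. Called members kept their directions. With the replicate number as a replicate block, all 102 member results kept direction and call, and gene counts changed by -2 to 77. Same-numbered libraries deviated together little or not at all (correlations -0.0287 to 0.0596, 0 of 4 pairs over 0.1 in each comparison). Such low values cannot show whether they share an animal or a day, which the labels do not give. Depth limits low genes such as Nox1 and Noxo1 but not the members, whose lowest group mean was 93.0 CPM.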
